A study of Mus musculus with 8 samples.

Results

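The 10 genes described here encode transcription factors that give pancreatic endocrine cells, and β-cells in particular, their identity: *Mafa*, *Pdx1*, *Nkx6-1*, *Nkx2-2*, *Isl1*, *Pax6*, *Neurod1*, *Foxa2*, *Rfx6* and *Insm1*. They were taken by symbol from the 30406 genes that all libraries measured, with earlier results of these data known, so the number that fell is a description, and every one of them had UMIs (unique molecular identifiers, each standing for 1 captured RNA molecule) in each of the 8 libraries of β-cells. Mouse pancreatic islets were dissociated after culture and profiled by droplet single-cell RNA sequencing of RNA 3′ ends. Islets came from male C57BL6/J mice (the labels give C57BL/6) 12 to 16 weeks of age, and the islets of 10 mice were pooled for each replicate and then divided over 4 conditions, each held for 18 h and each with 2 libraries. These conditions were no addition (untreated), IFN-γ at 150 U/mL together with IL-1β at 10 U/mL (cytokines), the same cytokines with 2 mM NMMA, an inhibitor of nitric oxide synthase (cytokines + NMMA), and NMMA alone. No genetic change was carried by any group, and the islets were in culture, away from blood flow and circulating immune cells. The question asked of the data was how far each factor fell when islets met cytokines, whether NMMA changed that, and whether β-, α- and δ-cells lost the factors to the same extent.

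PDX1, NKX6-1 and MAFA bind the insulin promoter and other genes of mature β-cells, while ISL1, PAX6, NEUROD1, NKX2-2, FOXA2, RFX6 and INSM1 act in several or all endocrine cell types of the islet. They work as a network in which many members bind near one another's genes. IL-1β and IFN-γ drive β-cells to make nitric oxide through inducible nitric oxide synthase, the product of *Nos2*, and NMMA blocks that enzyme.

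The genes lie on mouse build GRCm38 at the following places in the GENCODE M21 annotation. *Mafa* has 1 exon on the minus strand at chr15:75745490-75748228. *Pdx1* has 2 exons on the plus strand at chr5:147269959-147275848. *Nkx6-1* has 3 exons on the minus strand at chr5:101658139-101664996. Chromosome 2 holds *Nkx2-2* (chr2:147177546-147194243, minus), *Neurod1* (chr2:79452521-79456751, minus), *Foxa2* (chr2:148042877-148046969, minus), *Pax6* (chr2:105668900-105697364, plus, 13 exons) and *Insm1* (chr2:146221921-146225020, plus, 1 exon). *Isl1* lies at chr13:116298281-116309689 on the minus strand and *Rfx6* at chr10:51677756-51730432 on the plus strand. *Neurod1* lies wholly within *Cerkl* on the same strand, over 4231 bases, so reads from an unspliced *Cerkl* transcript could not be told apart from its own. *Pdx1*, *Nkx2-2* and *Pax6* each overlap an antisense gene (*Plut*, *Nkx2-2os* and *Pax6os1*).

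RefSeq start-site sequences, from 250 bases before to 50 bases after the start on GRCm38.p6, were held for 8 of the 10 genes, in 11 windows of 300 bases. 3 of them are shown because their genes fell in β-cells and, for *Nkx2-2* and *Isl1*, in α- and δ-cells as well, and because each carries the E-box (CANNTG, read on both strands), the motif that NEUROD1 and other basic helix-loop-helix factors recognise. Capitals mark E-boxes. The *Pdx1* window (chr5:147269847-147270146, plus strand) holds them 128, 122 and 51 bases before the start, the *Nkx2-2* window (chr2:147186353-147186652, minus strand, inside the gene as GENCODE draws it) 220, 197 and 173 bases before, and the *Isl1* window (chr13:116309639-116309938, minus strand) 103 bases before.
Pdx1: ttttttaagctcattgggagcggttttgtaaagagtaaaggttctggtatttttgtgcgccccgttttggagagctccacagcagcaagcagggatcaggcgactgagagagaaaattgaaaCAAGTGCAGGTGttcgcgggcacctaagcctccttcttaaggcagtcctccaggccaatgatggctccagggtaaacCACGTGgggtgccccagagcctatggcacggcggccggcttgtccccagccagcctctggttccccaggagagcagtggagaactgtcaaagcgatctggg
Nkx2-2: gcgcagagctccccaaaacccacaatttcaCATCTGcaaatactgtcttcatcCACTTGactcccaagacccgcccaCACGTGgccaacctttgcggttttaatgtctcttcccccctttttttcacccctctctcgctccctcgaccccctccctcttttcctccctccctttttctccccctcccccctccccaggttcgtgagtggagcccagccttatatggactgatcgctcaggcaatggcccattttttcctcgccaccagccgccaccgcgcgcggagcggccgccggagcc
Isl1: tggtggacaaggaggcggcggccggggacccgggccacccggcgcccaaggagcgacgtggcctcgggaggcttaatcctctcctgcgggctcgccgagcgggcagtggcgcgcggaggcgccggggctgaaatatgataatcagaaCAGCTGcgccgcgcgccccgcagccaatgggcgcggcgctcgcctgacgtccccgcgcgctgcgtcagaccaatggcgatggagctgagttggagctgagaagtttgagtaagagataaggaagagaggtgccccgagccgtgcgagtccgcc

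An E-box was present in 7 of the 11 windows, belonging to *Foxa2*, *Isl1*, *Neurod1*, *Nkx2-2*, *Pax6*, *Pdx1* and *Rfx6*, and in 72.3% of all 32817 mouse windows. None of the 11 windows held the interferon-stimulated response element (3.43% of all windows), the NF-κB motif (0.411%) or the forkhead motif TGTTTAC (3.65%). The homeodomain motif TAATTA, present in 5.30% of all windows, was found in the window of *Rfx6*, and the MAF motif TGCTGAC, present in 4.67%, in that of *Foxa2*. These are matches of letters in short windows (3 for *Foxa2*, 2 for *Pax6* and 1 for each of the others), and no factor binding was measured.

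The libraries held 26549922 to 50731370 UMIs each, and 10876 of 17426 barcodes passed the filters on genes per cell and mitochondrial share. Cells were clustered without the 10 genes, and 7 clusters that scored highest for β-cell markers and were not of low UMI content are called β-cells here (6335). α-cells (666) and δ-cells (340) were named in the same manner. In 5 of these 7, which hold nearly all β-cells of the cytokine conditions, no β-cell marker was among the 10 leading genes: 4 were led by cytokine-induced genes such as *Nos2*, *Cxcl10*, *Icam1* and *Gbp6*, and 1 by heat shock genes such as *Hspa1a* and *Dnajb1*. β-cells held *Ins2* at 255527 to 302182 CPM (UMIs of a gene scaled to the same total in every library) in every library, α-cells *Gcg* at 82307 to 218459 CPM and δ-cells *Sst* at 26966 to 90626 CPM, while α-cells also held *Ppy* at 10580 to 65419 CPM. A further cluster led by *Ppy* (117 cells) had markers of other types among its leading genes and stays unnamed, so no PP-cell class could be tested. Clusters with insulin and a further islet hormone among their leading RNAs (275 cells) were kept out of every class, with 73 and 58 cells in the untreated libraries, 1 and 0 with cytokines, 0 and 0 with cytokines + NMMA and 14 and 129 with NMMA. Another 2161 barcodes, in clusters of low UMI content with no marker of their own type among the leading genes, stayed unnamed. Most of these were in clusters that scored highest for β-cell markers, and 793 were in untreated replicate 2 against 53 in untreated replicate 1. The β-cell cluster that held most cells differed by condition (one cluster held 71.2% of untreated and 48.7% of NMMA β-cells, others 61.8% of cytokine-treated and 45.0% of cytokines + NMMA β-cells), and the same held in α- and δ-cells, so each class below is a sum over such clusters.

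In untreated islets the factors divided into those concentrated in β-cells and those shared by the endocrine cells, as the plot of untreated levels by cell type shows. Values in this paragraph are mean ± SD of CPM over the 2 untreated libraries (n = 2), scaled jointly over all cell types. *Mafa* stood at 787 ± 149 in β-cells and its next highest level, in macrophages, was 28.2. Insulin RNA made up 1.68% and 3.98% of the macrophage UMIs. In endothelial, macrophage and mesenchymal cells together, β-cell RNA carried over at their insulin share would give 180% and 95.9% of the observed *Mafa* level. The source of *Mafa* UMIs in macrophages was not tested. *Pdx1* was at 181 ± 16.4 in β-cells, 103 ± 24.2 in δ-cells and 8.01 in α-cells, and these ranges did not overlap. *Nkx6-1* was at 279 ± 50.5 in β-cells and 96.6 ± 31.1 in the cluster led by *Ppy*, and it fell to 25.1 in α- and 21.7 in δ-cells. *Isl1*, which is needed for the maturation of several islet endocrine types, was highest outside β-cells, with 473 ± 32.2 in δ-cells, 236 ± 8.12 in α-cells, 212 ± 39.4 in the cluster led by *Ppy* and 181 ± 2.87 in β-cells, and the α-cell and *Ppy*-led levels did not differ beyond their spread.

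The remaining factors were not confined to β-cells, and their levels differed between endocrine cells to varying degrees. *Pax6*, required for glucagon and insulin expression, was at 299 ± 19.4 in β-cells, 250.01 ± 24.1 in δ-cells, 231 ± 16.5 in the cluster led by *Ppy* and 207 ± 5.18 in α-cells, and *Pax6* in δ-cells and in the cluster led by *Ppy* did not differ beyond their spread. *Foxa2*, a pioneer factor of the endoderm, lay between 75.0 ± 29.0 in δ-cells and 92.1 ± 24.5 in the cluster led by *Ppy*, and no endocrine type stood apart. *Rfx6*, which acts downstream of the endocrine progenitor stage, was at 55.1 ± 3.45 in δ-cells and 51.4 ± 5.44 in β-cells, within their spread, and at 31.9 ± 1.57 in α-cells. In the cluster led by *Ppy* it was at 10.2 ± 7.42, on 6 and 1 UMIs. *Nkx2-2* was at 121 ± 5.46 in β-cells, 72.7 ± 9.64 in α-cells and 37.3 in δ-cells. *Neurod1* was at 228 ± 35.7 in β-cells and 169.7 ± 15.1 in α-cells, and *Insm1*, a zinc finger factor of endocrine differentiation, at 189.8 ± 13.8 in β-cells, 128 ± 4.11 in δ-cells and 68.3 in α-cells. The mean of the 2 libraries was at most 5.0 CPM for any factor in endothelial cells, and no mean in macrophages or mesenchymal cells passed 28.2 CPM. β-cells had the highest level for 7 of the 10 genes with this scaling and for 4 (*Mafa*, *Pdx1*, *Nkx6-1* and *Nkx2-2*) when CPM were taken over all UMIs, of which insulin RNA made up 33.8% to 43.0% in β-cells.

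**Figure D1:**
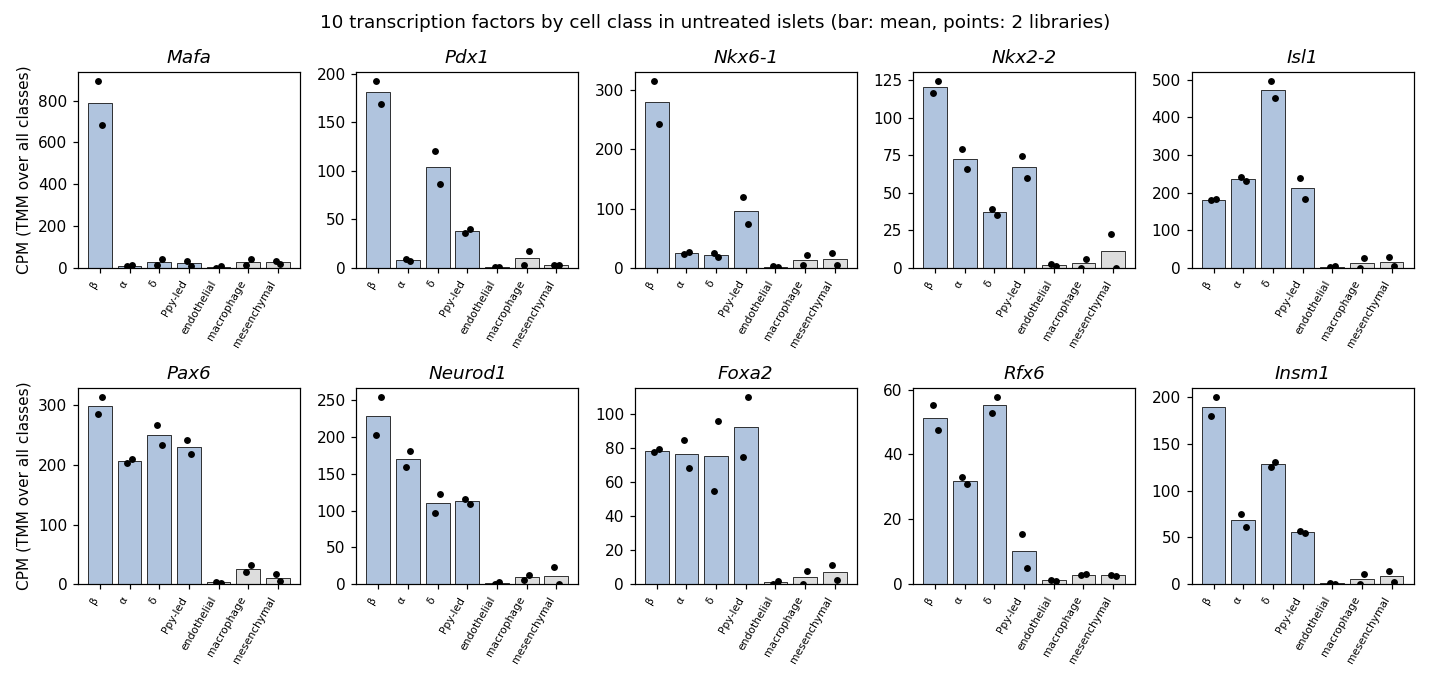
Levels of the 10 transcription factors in untreated islets by cell type, in CPM scaled jointly over cell types (y axis), with a bar at the mean and 1 point for each of the 2 untreated libraries. *Mafa* is almost confined to β-cells among the 7 cell types drawn (787 ± 149 CPM, next highest 28.2 CPM), whereas *Isl1* is highest in δ-cells (473 ± 32.2 CPM).

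In β-cells, 18 h of cytokines lowered 9 of the 10 factors, where 22.5% of all genes tested were lower, leaving from 7.43% of the untreated level for *Mafa* to 66.0% for *Neurod1*, and *Insm1* was not lowered. Fewer cells of a type cannot be told apart from less RNA per cell in bulk tissue, but here UMIs were summed over 447 to 1657 β-cells a library (11574532 to 35107270 UMIs), so values are per β-cell RNA. β-cell values below are CPM scaled by TMM (trimmed mean of M-values) among the β-cell libraries, and each pair gives replicates 1 and 2. Tests are edgeR quasi-likelihood tests over 12761 genes, with Benjamini-Hochberg adjusted p called below 0.05, and with 2 pools of islets a condition the p-values measure only the spread between these pools. The main fit within a cell type held condition only, so it left out that each pool was divided over all 4 conditions. The fit with the replicate as a block, given as an alternative, takes that pairing in.

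*Mafa*, which activates insulin transcription in mature β-cells, stood at 615 and 470 CPM in untreated islets, 38.3 and 40.2 with cytokines, 76.9 and 103 with cytokines + NMMA and 288 and 244 with NMMA alone. No group overlapped another: all cytokine values lay far below the untreated ones, those with cytokines + NMMA between these and the NMMA ones, and NMMA alone below untreated. The change with cytokines was -3.75 ± 0.21 (log2 ± SE, adjusted p = 7.47e-06), leaving 7.43% of the untreated level, and the change with cytokines + NMMA was -2.56 ± 0.20 (adjusted p = 3.72e-05), leaving 16.9%. Against cytokines alone, NMMA raised *Mafa* by 1.19 ± 0.20 (adjusted p = 0.00602).

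*Pdx1*, the factor of pancreas formation and of β-cell identity, was at 132 and 116 CPM untreated, 21.3 and 19.1 with cytokines, 47.6 and 45.3 with cytokines + NMMA and 109.98 and 82.3 with NMMA. The cytokine and the cytokines + NMMA libraries lay apart from each other and from the untreated ones. *Pdx1* changed by -2.59 ± 0.16 with cytokines (adjusted p = 1.07e-05, 16.7% left) and by -1.39 ± 0.16 with cytokines + NMMA (adjusted p = 0.000280, 38.1% left), and the rise with NMMA over cytokines was 1.19 ± 0.16 (adjusted p = 0.00312). The rise of *Pdx1* and that of *Mafa* were thus of equal size on the log2 scale, and both genes stayed below untreated.

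*Nkx6-1*, which keeps β-cells from taking other endocrine fates, was at 216 and 167 CPM untreated, 98.1 and 86.6 with cytokines, 99.9 and 89.9 with cytokines + NMMA and 186 and 167 with NMMA. Here the cytokine libraries with and without NMMA overlapped, and both pairs lay below every untreated and NMMA library. The gene fell by 1.02 ± 0.15 with cytokines (adjusted p = 0.000796, 49.3% left) and by 0.99 ± 0.15 with cytokines + NMMA (adjusted p = 0.00182). The difference between the cytokine conditions was 0.03 ± 0.15 (adjusted p = 0.905).

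*Isl1* and *Pax6* behaved otherwise. *Isl1* was at 123 and 126 CPM untreated, 42.3 and 44.4 with cytokines, 105 and 108 with cytokines + NMMA and 104 and 116 with NMMA. *Pax6* was at 197 and 216 CPM untreated, 67.6 and 83.0 with cytokines, 145 and 177 with cytokines + NMMA and 211 and 228 with NMMA. For both genes the cytokine libraries lay well below all others, and with NMMA present the levels came back towards untreated ones while still not overlapping them. With cytokines *Isl1* changed by -1.49 ± 0.13 (adjusted p = 4.26e-05, 35.6% left) and *Pax6* by -1.41 ± 0.17 (adjusted p = 0.000260, 37.5% left). With NMMA, *Isl1* was higher than with cytokines alone by 1.29 ± 0.13 (adjusted p = 0.00144) and *Pax6* by 1.09 ± 0.17 (adjusted p = 0.00506). The difference that remained from untreated was -0.20 ± 0.12 for *Isl1* (adjusted p = 0.308) and -0.32 ± 0.17 for *Pax6* (adjusted p = 0.209), and the fit with the replicate as a block called *Pax6* lower (-0.33, adjusted p = 0.00837).

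*Nkx2-2*, a homeodomain repressor and activator of endocrine fate, was at 80.4 and 85.7 CPM untreated, 24.6 and 28.3 with cytokines, 43.6 and 47.2 with cytokines + NMMA and 71.4 and 82.2 with NMMA. Its cytokine libraries were lowest, those with cytokines + NMMA intermediate, and the NMMA libraries overlapped the untreated ones. It changed by -1.61 ± 0.14 with cytokines (adjusted p = 5.21e-05, 32.7% left) and by -0.84 ± 0.14 with cytokines + NMMA (adjusted p = 0.00270). NMMA raised it over cytokines by 0.77 (adjusted p = 0.00850).

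**Figure D2:**
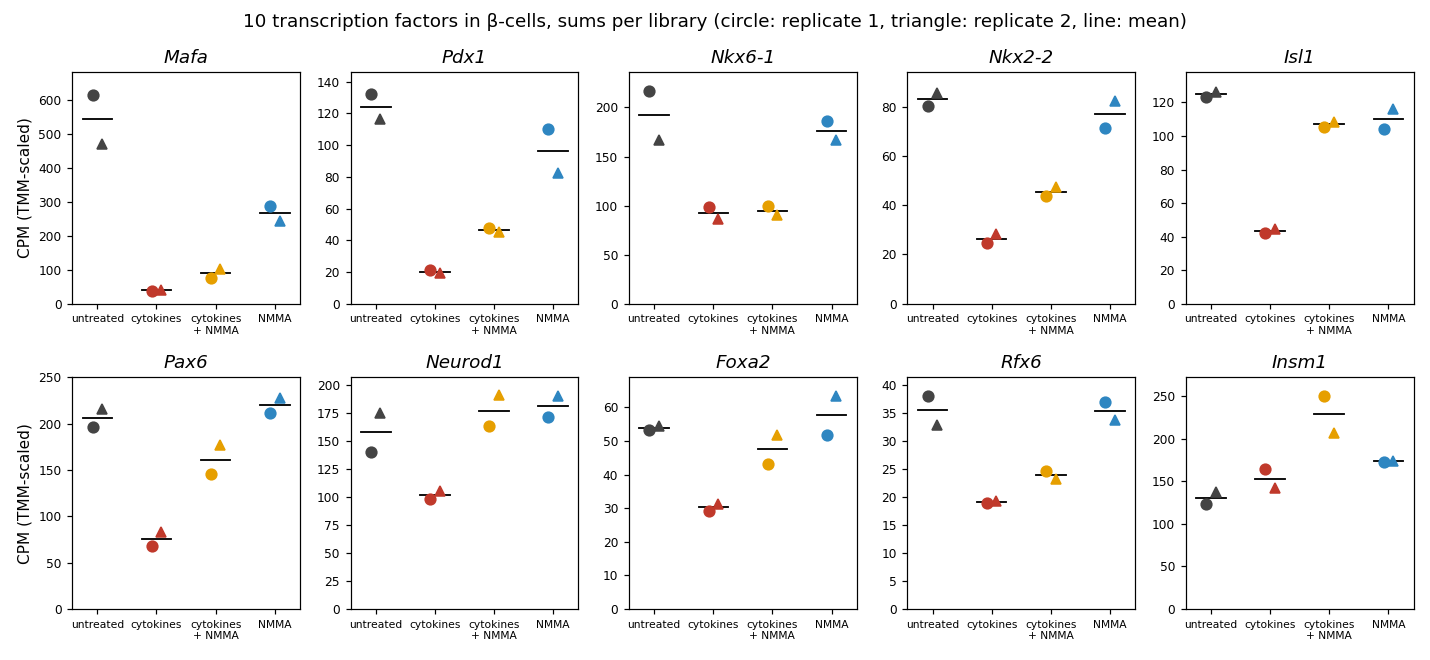
Level of each factor in the 8 β-cell libraries, in TMM-scaled CPM (y axis), by condition (x axis), with a circle for replicate 1, a triangle for replicate 2 and a line at their mean. *Mafa* drops from 615 and 470 CPM to 38.3 and 40.2 CPM with cytokines, *Isl1* returns to 105 and 108 CPM with cytokines + NMMA, and *Insm1* is highest with cytokines + NMMA.

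*Neurod1*, *Foxa2* and *Rfx6* were lowered too and kept over 50% of their untreated level. *Neurod1*, which activates insulin transcription together with PDX1, was at 139.9 and 175 CPM untreated, 97.7 and 105 with cytokines, 163 and 190.3 with cytokines + NMMA and 171 and 189.8 with NMMA. *Foxa2* was at 53.2 and 54.5 CPM untreated, 29.3 and 31.4 with cytokines, 43.2 and 51.8 with cytokines + NMMA and 51.9 and 63.4 with NMMA. *Rfx6* was at 38.0 and 32.7 CPM untreated, 18.8 and 19.3 with cytokines, 24.6 and 23.3 with cytokines + NMMA and 37.0 and 33.6 with NMMA. In each case both cytokine libraries lay below both untreated ones. With cytokines *Rfx6* changed by -0.86 ± 0.13 (adjusted p = 0.000715, 55.1% left), *Foxa2* by -0.79 ± 0.15 (adjusted p = 0.00270, 57.8% left) and *Neurod1* by -0.60 ± 0.16 (adjusted p = 0.0150, 66.0% left). The *Neurod1* call was lost without cytokines replicate 1 (-0.52, adjusted p = 0.0915) or untreated replicate 2 (-0.43, adjusted p = 0.109). With cytokines + NMMA, *Foxa2* (-0.15 ± 0.15, adjusted p = 0.523) and *Neurod1* (0.20 ± 0.16, adjusted p = 0.437) were not called against untreated, and both were higher than with cytokines alone, by 0.64 (adjusted p = 0.0204) and 0.80 (adjusted p = 0.0123). *Rfx6* stayed lower than untreated with cytokines + NMMA (-0.54 ± 0.13, adjusted p = 0.0146), a call lost when untreated replicate 1 (adjusted p = 0.126) or either cytokines + NMMA library (adjusted p = 0.0648 and 0.0855) was left out. Its difference between the cytokine conditions was 0.32 ± 0.13 (adjusted p = 0.106), called with the replicate block (0.33, adjusted p = 0.0248).

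*Insm1* went the other way. It was at 124 and 137 CPM untreated, 164 and 142 with cytokines, 251 and 206 with cytokines + NMMA and 173 and 174 with NMMA. Both cytokine libraries lay above both untreated ones, and those with cytokines + NMMA lay above all the rest. The change with cytokines was 0.26 ± 0.14 (adjusted p = 0.166), and it was called higher with the replicate block (0.26, adjusted p = 0.0343). With cytokines + NMMA *Insm1* rose by 0.83 ± 0.14 over untreated (adjusted p = 0.00306) and by 0.57 over cytokines (adjusted p = 0.0240).

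Over the list, 9 of 10 factors were lower with cytokines in β-cells, where 22.5% of all genes tested were lower and 23.8% higher, and the median change was -1.22 for the factors and 0.00 for all genes. With cytokines + NMMA against untreated, 5 were lower (*Mafa*, *Pdx1*, *Nkx6-1*, *Nkx2-2* and *Rfx6*, beside 9.8% of all genes) and 1, *Insm1*, higher (12.9% of all genes). With cytokines + NMMA against cytokines, 8 were higher, where 10.5% of all genes were. That count was 4 without cytokines replicate 1, which lost *Nkx2-2*, *Neurod1*, *Foxa2* and *Insm1*, and 5 without cytokines + NMMA replicate 2, which lost *Nkx2-2*, *Neurod1* and *Foxa2*. *Foxa2* was lost as well when the β-cells were thinned to 1 depth (0.57, adjusted p = 0.0651), and *Insm1* without cytokines replicate 2 (adjusted p = 0.107) or cytokines + NMMA replicate 1 (adjusted p = 0.150). Scaling by total UMIs shifted the median of all genes by -0.22 with cytokines (lower genes made up 66.4% of calls in place of 48.6%) and by 0.22 between the cytokine conditions (14.9% in place of 46.5%), and the direction of all 10 factors with cytokines was the same in β-cells, with *Insm1* at 0.04 (adjusted p = 0.859).

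Other islet transcription factors were read from a list of 35 genes, of which 27 were tested in β-cells. With cytokines 20 of these were lower and 2 higher (22.5% and 23.8% of all genes), with a median of -1.03. With cytokines + NMMA 10 were lower and 2 higher than untreated (9.8% and 12.9% of all genes), and 11 were higher than with cytokines alone (10.5% of all genes) and 1 lower. *Sox4*, a factor of endocrine differentiation, went from 55.8 and 47.0 CPM untreated to 9.67 and 13.9 with cytokines (-2.09, adjusted p = 6.73e-05), and *Bhlha15*, a factor of secretory cells, from 25.1 and 17.7 to 5.73 and 5.22 CPM (-1.93, adjusted p = 0.000101). *Neurog3*, the factor of endocrine progenitors, had 89 and 17 UMIs untreated, 1 and 0 with cytokines, 11 and 10 with cytokines + NMMA and 30 and 15 with NMMA (adjusted p = 0.000614 with cytokines). *Glis3*, an activator of insulin transcription, rose by 0.66 (adjusted p = 0.00763). In α-cells 7 of 23 of these genes were lower with cytokines (8.64% of all genes) and in δ-cells 5 of 24 (2.31%), and none was higher.

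Of 16 genes known as direct targets of the factors in β-cells, 10 were lower with cytokines and none higher (22.5% and 23.8% of all genes), with a median of -0.99. *Slc2a2*, the glucose transporter of mouse β-cells, fell from 133 and 87.3 CPM to 9.67 and 8.96 (-3.53), *Ucn3*, a mark of mature β-cells, from 165 and 129 to 24.4 and 21.0 (-2.66), and *G6pc2*, a glucose-6-phosphatase, by 1.86 on the log2 scale (edgeR adjusted p of 1.13e-05, 1.38e-05 and 3.70e-05). With cytokines + NMMA, *Slc2a2* was at 9.99 and 12.03 CPM and *Ucn3* at 15.5 and 18.4 CPM, close to or below the level with cytokines alone. *G6pc2* (1.98, edgeR adjusted p = 0.000769), *Pcx*, a carboxylase of pyruvate (1.43, adjusted p = 0.00221), and *Pcsk1*, a prohormone convertase (1.10, adjusted p = 0.00366), were among 4 targets higher than with cytokines alone (10.5% of all genes), and *Trpm5*, a cation channel, was lower (-0.63, adjusted p = 0.0258). In all, 6 of the targets were lower than untreated with cytokines + NMMA (9.8% of all genes).

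RNA of other cell types in the β-cell sums differed between libraries. Markers of α-cells summed to 299 to 4425 CPM, highest in cytokines replicate 2, those of δ-cells to 49.3 to 423 CPM and those of macrophages to 36.6 to 188 CPM, highest in cytokines + NMMA replicate 1, while T cell markers were at 0. Their part in the changes was not tested. As checks of the treatment, *Nos2* had 1 and 0 UMIs in untreated β-cells, 5047 and 2414 with cytokines and 8635 and 5637 with cytokines + NMMA, and the interferon-induced *Irf1* and *Gbp2* were at 20.2 and 1.73 CPM in untreated replicate 1 and at 188 and 1317 CPM in cytokines replicate 1.

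NMMA alone gave no call among 12761 genes in β-cells by the edgeR quasi-likelihood test (0% called), although 932 genes had an unadjusted p under 0.05, and DESeq2 called 9 genes and the fit with the replicate block 247 lower and 198 higher. *Mafa* was the factor that differed most, by -1.02 ± 0.19 (unadjusted p = 0.000469, edgeR adjusted p = 0.376), and both NMMA libraries (288 and 244 CPM) lay below both untreated ones (615 and 470 CPM). It was called lower by DESeq2 (-1.01, adjusted p = 0.000336), without the filter on low counts (-1.03, adjusted p = 0.000168) and with the replicate block (-1.02, adjusted p = 0.0388). The block also called *Pdx1* lower (-0.37, adjusted p = 0.0432) and *Insm1* higher (0.41, adjusted p = 0.0320).

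The fall with cytokines was also seen in how many β-cells still held a UMI of each factor, once each cell was thinned to 9500 UMIs (10 to 94 shallower cells a library left out). A UMI of *Mafa* was found in 87.0% of 1594 cells in untreated replicate 1 (exact binomial 95% interval 85.2% to 88.6%, for counting error only) and in 78.3% of 516 in replicate 2 (74.5% to 81.8%), against 21.9% of 1108 (19.5% to 24.5%) and 25.7% of 482 (21.9% to 29.9%) with cytokines. With cytokines + NMMA the *Mafa* shares were 39.9% and 46.4%, and with NMMA 73.1% and 71.2%. Without thinning they ran from 85.0% to 91.8% untreated, 43.3% to 45.8% with cytokines, 62.0% to 67.0% with cytokines + NMMA and 80.8% to 89.9% with NMMA. *Pdx1* went from 62.0% to 69.4% of untreated cells to 14.1% to 16.1% with cytokines, and *Isl1* from 62.6% to 64.6% to 26.9% to 30.9%, while *Neurod1* went from 69.4% to 78.7% to 45.2% to 52.5%. The share for *Insm1* (66.3% to 68.0% untreated, 60.1% to 62.4% with cytokines) did not follow its CPM, so no order is read from it. Endothelial, macrophage and mesenchymal cells, which should lack the factors, have lower depth (median 8263 to 14440 UMIs against 20431 to 29754 in β-cells), and both were compared at 2500 UMIs a cell. There *Mafa* was found in 53.8% to 61.7% of untreated and 7.56% to 8.02% of cytokine-treated β-cells, against 2 of 100 and 5 of 134 of those other cells untreated (3.73% in replicate 2) and 0 of 47 and 0 of 70 with cytokines (upper 95% limits 7.55% and 5.13%). Endothelial cells taken alone, in a thinning of their own, gave 1 of 15 and 1 of 23 with cytokines (6.67% and 4.35%), so the background share depends on the draw and rests on few cells. At that depth the share of cytokine-treated β-cells with *Mafa* could not be told apart from the endothelial one. In sums without thinning, mean *Mafa* with cytokines was 39.3 CPM in β-cells. In the endothelial, macrophage and mesenchymal cells together it was 3.02 CPM (2 and 3 UMIs), each scaled among its own libraries.

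Counting how many of the 10 factors a thinned β-cell held shows the combined loss. The mean was 6.42 and 6.22 factors in untreated cells, 3.10 and 3.41 with cytokines, 4.87 and 5.10 with cytokines + NMMA and 6.09 and 6.27 with NMMA. Cells with at most 2 factors made up 1.19% and 3.88% of untreated cells and 40.7% and 32.8% of those with cytokines. Cells with 8 or more made up 26.5% and 25.6% of untreated and 0.993% and 2.07% of cytokine-treated cells. Neither measure overlapped between the conditions with and without cytokines, and cytokines + NMMA lay in between, with 8.63% and 10.4% of cells at 2 or fewer. These counts were made at an equal number of UMIs, and cells of 1 library are not replicates. In α-cells, thinned to 8500 UMIs, the mean was 4.50 and 3.97 factors untreated, 1.95 and 2.69 with cytokines, 3.90 and 3.85 with cytokines + NMMA and 4.78 and 4.24 with NMMA, so the cytokine libraries were again the lowest.

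**Figure D3:**
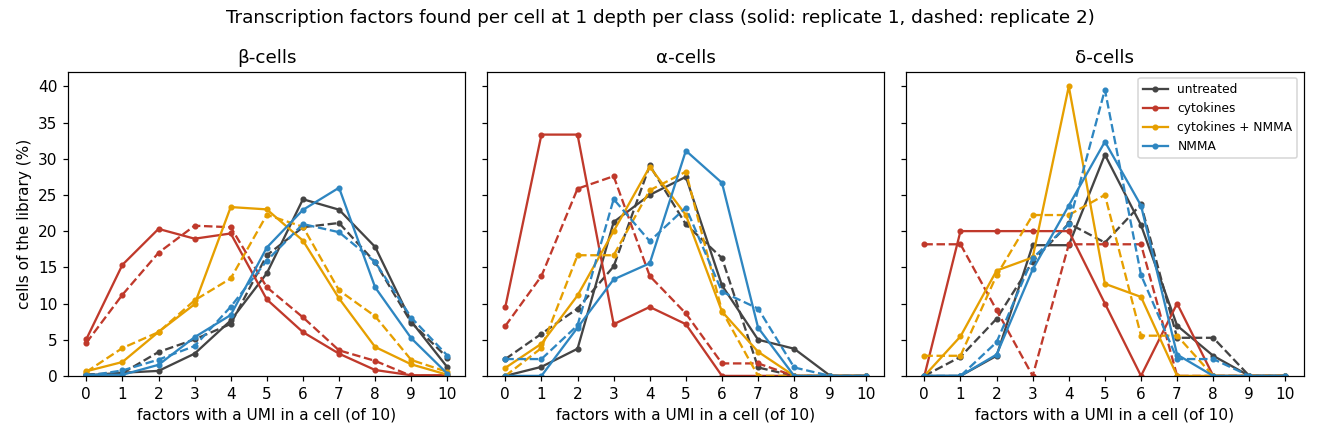
Number of the 10 factors with at least 1 UMI in a cell (x axis) against the percent of the library's cells of that type (y axis), with a solid line for replicate 1 and a dashed line for replicate 2, in β-, α- and δ-cells thinned to 9500, 8500 and 7000 UMIs. In β-cells the untreated lines centre on means of 6.42 and 6.22 factors and the cytokine lines on 3.10 and 3.41, and the δ-cell cytokine lines rest on at most 12 cells each.

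In α-cells fewer of the factors passed the test. Each library held 48 to 103 α-cells and 819539 to 1922176 UMIs, so precision is lower than in β-cells. Cytokines lowered 3 of 10 factors, *Nkx2-2*, *Isl1* and *Neurod1*, where 8.64% of 9764 genes tested were lower, and the median was -0.53 for the factors and -0.03 for all genes. *Isl1*, which activates glucagon transcription, was at 233 and 222 CPM untreated, 77.9 and 88.8 with cytokines, 207 and 186 with cytokines + NMMA and 249 and 192 with NMMA. *Nkx2-2* was at 76.6 and 63.5 CPM untreated, 12.5 and 30.2 with cytokines (8 and 35 UMIs), 48.5 and 46.9 with cytokines + NMMA and 81.2 and 57.2 with NMMA. In both genes the cytokine libraries lay below all others. *Isl1* changed by -1.396 ± 0.22 (adjusted p = 0.000141) and *Nkx2-2* by -1.56 ± 0.31 (adjusted p = 0.00169), and with NMMA *Isl1* was higher than with cytokines alone by 1.18 (adjusted p = 0.00198) and *Nkx2-2* by 1.004 ± 0.32 (adjusted p = 0.0495). *Neurod1* was at 153 and 174 CPM untreated and 85.7 and 111 with cytokines, a change of -0.68 ± 0.23 (adjusted p = 0.0405) that was lost with DESeq2 (adjusted p = 0.142), with doublets removed (adjusted p = 0.0567), at the coarser clustering of resolution 1 (adjusted p = 0.0570) or without cytokines replicate 1 or any library of untreated or NMMA islets (adjusted p from 0.0558 to 0.250). The rise of *Nkx2-2* with NMMA over cytokines was lost with doublets removed (adjusted p = 0.0538), at resolution 1 (adjusted p = 0.0541) and without any library but cytokines replicate 2, furthest without cytokines replicate 1 (0.58, adjusted p = 0.326).

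*Pax6*, whose product activates the glucagon gene, was at 196 and 203 CPM in untreated α-cells, 173 and 121 with cytokines, 156 and 218 with cytokines + NMMA and 219 and 191 with NMMA. Its cytokine values were below untreated in each replicate but the change of -0.41 ± 0.23 was not called (adjusted p = 0.220). *Rfx6* (31.8 and 29.7 to 20.3 and 16.4 CPM, adjusted p = 0.105) and *Foxa2* (81.7 and 65.6 to 28.0 and 67.2 CPM) were not called either, and *Foxa2* was lower in replicate 1 alone. Without cytokines replicate 2, *Foxa2* (-1.31, adjusted p = 0.0174) and *Nkx6-1* (-1.88, adjusted p = 0.0345) were called lower, the latter on 6.23 CPM. *Insm1* had 72.3 and 59.4 CPM untreated and 56.1 and 56.9 with cytokines. Scaling by total UMIs moved the median of all α-cell genes to -0.52 and raised the lower share of calls from 40.4% to 81.7%, and 6 factors were then called lower, with *Pax6* (-0.93), *Rfx6* (-1.22) and *Insm1* (-0.67) added.

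*Mafa* and *Pdx1* were near the floor in α-cells, and *Nkx6-1* was low there. *Mafa* had 3 to 26 UMIs in an α-cell library, *Pdx1* 2 to 36, and *Nkx6-1* 6.23 to 30.1 CPM, and none was called lower. Insulin RNA made up 0.788% to 5.13% of α-cell UMIs. β-cell RNA carried over at that insulin share would give 129% and 163% of the observed untreated *Mafa* level and 44.5% and 45.5% of the cytokine one. With NMMA alone the estimate was 145% and 314% of the observed level, so it can exceed what was there. The source of the *Mafa* UMIs in α-cells was not tested. For *Pdx1* the same estimate was 25.4% and 80.7% of the observed level untreated. It was 111% and 24.1% with cytokines (2 and 9 UMIs) and 14.2% and 35.4% with cytokines + NMMA (27 and 36 UMIs). For *Nkx6-1* it was 16.1% and 30.2% untreated (31 and 50 UMIs) and 256% and 37.7% with cytokines (4 and 26 UMIs).

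With cytokines + NMMA against untreated, no factor was called in α-cells (2.17% of all genes were lower and 5.81% higher), and 2 of the factors and 1795 genes had an unadjusted p under 0.05. The replicate block called *Pdx1* higher (1.15, adjusted p = 0.0272), on 27 and 36 UMIs with cytokines + NMMA against 12 and 13 untreated. With cytokines + NMMA against cytokines, *Isl1* and *Nkx2-2* were higher (5.14% of all genes), with the block 4 were, *Pdx1* (1.46, adjusted p = 0.0197) and *Neurod1* (0.57, adjusted p = 0.0235) being added, and DESeq2 called *Isl1* only (*Nkx2-2* adjusted p = 0.136). NMMA alone gave no call among the 9764 genes by edgeR and none by DESeq2, with 354 genes and none of the factors at an unadjusted p under 0.05.

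In δ-cells cytokines lowered 5 of the factors, *Isl1*, *Pax6*, *Pdx1*, *Nkx2-2* and *Rfx6*, where 2.31% of 8892 genes tested were lower. The cytokine libraries held only 11 and 12 δ-cells, against 85 and 44 untreated, so each cytokine value rests on few UMIs. The median change was -1.86 for the factors and -0.03 for all genes. *Isl1* was at 589.6 and 527 CPM untreated, 134 and 71.2 with cytokines (22 and 16 UMIs), 223 and 184 with cytokines + NMMA and 551 and 446 with NMMA. *Pax6* was at 318 and 273 CPM untreated, 73.0 and 66.8 with cytokines (12 and 15 UMIs), 251 and 235 with cytokines + NMMA and 369 and 301 with NMMA. *Pdx1*, which δ-cells also express, was at 143 and 101 CPM untreated, 36.5 and 35.6 with cytokines (6 and 8 UMIs), 95.2 and 69.5 with cytokines + NMMA and 94.5 and 89.7 with NMMA. In all of these the cytokine libraries lay lowest and apart. For each gene both libraries with cytokines + NMMA also lay below both untreated ones, though among these genes only *Isl1* was called in that comparison.

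*Isl1* changed by -2.40 ± 0.31 (adjusted p = 0.000114), *Pax6* by -2.01 ± 0.28 (adjusted p = 0.000213) and *Pdx1* by -1.70 ± 0.36 (adjusted p = 0.00747) in δ-cells with cytokines. *Rfx6* had 59 and 44 UMIs untreated and 4 and 1 with cytokines (adjusted p = 0.0159), and *Nkx2-2* 44 and 27 untreated and 2 and 1 with cytokines (adjusted p = 0.0297). The calls on *Nkx2-2* (adjusted p = 0.177) and *Rfx6* (adjusted p = 0.0810) were not made by DESeq2, and both were lost without cytokines replicate 2 (adjusted p = 0.221 and 0.220) or either untreated library. *Pdx1* was lost without untreated replicate 1 (-1.397, adjusted p = 0.0912), which left 2 factors called. *Neurod1* was at 116 and 144 CPM untreated and 73.0 and 40.1 with cytokines (adjusted p = 0.236, with the replicate block 0.0307), and *Insm1* at 149 and 153 CPM untreated and 97.3 and 120.2 with cytokines (adjusted p = 0.453). *Mafa* in δ-cells had 16 and 31 UMIs untreated, 0 and 1 with cytokines, 2 and 2 with cytokines + NMMA and 1 and 5 with NMMA. Carry-over of β-cell RNA at the insulin share of δ-cells would give 66.5% and 79.6% of its untreated level. *Pdx1* in δ-cells is not at that level, since the same figure was 1.22% to 11.3% over the 8 libraries.

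With cytokines + NMMA against untreated, *Isl1* stayed lower in δ-cells (-1.49 ± 0.27, adjusted p = 0.00171, without cytokines + NMMA replicate 2 0.0583), and *Mafa* was called lower on its 4 UMIs (adjusted p = 0.00495, with DESeq2 0.0840, without cytokines + NMMA replicate 1 0.0730 and without untreated replicate 2 0.237), where 2.01% of all genes were lower. With cytokines + NMMA against cytokines, *Pax6* was higher (1.70 ± 0.28, adjusted p = 0.0125, without cytokines + NMMA replicate 1 0.122, where 0.506% of all genes were higher), and the replicate block added *Isl1* (0.93, adjusted p = 0.0401). NMMA alone gave no call in δ-cells by edgeR or DESeq2, with 184 genes and 1 of the factors at an unadjusted p under 0.05 by edgeR. With NMMA alone, mean *Mafa* in δ-cells was 12.2% of untreated, on 1 and 5 UMIs, so a low level was also seen without cytokines. Carry-over of β-cell RNA would give 356% and 496% of that observed level, and 120% and 266% of the one with cytokines + NMMA. *Mafa* in δ-cells was thus at or below the carry-over estimate in these libraries, and the source of its UMIs was not tested. In the cluster led by *Ppy*, all 10 factors together had 2 UMIs in the 4 and 3 cells of the cytokine libraries, both of *Isl1*, against 41 and 30 cells in the untreated ones with 93 and 37 UMIs of *Isl1* and 94 and 44 of *Pax6*, and no test was made.

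**Figure D4:**
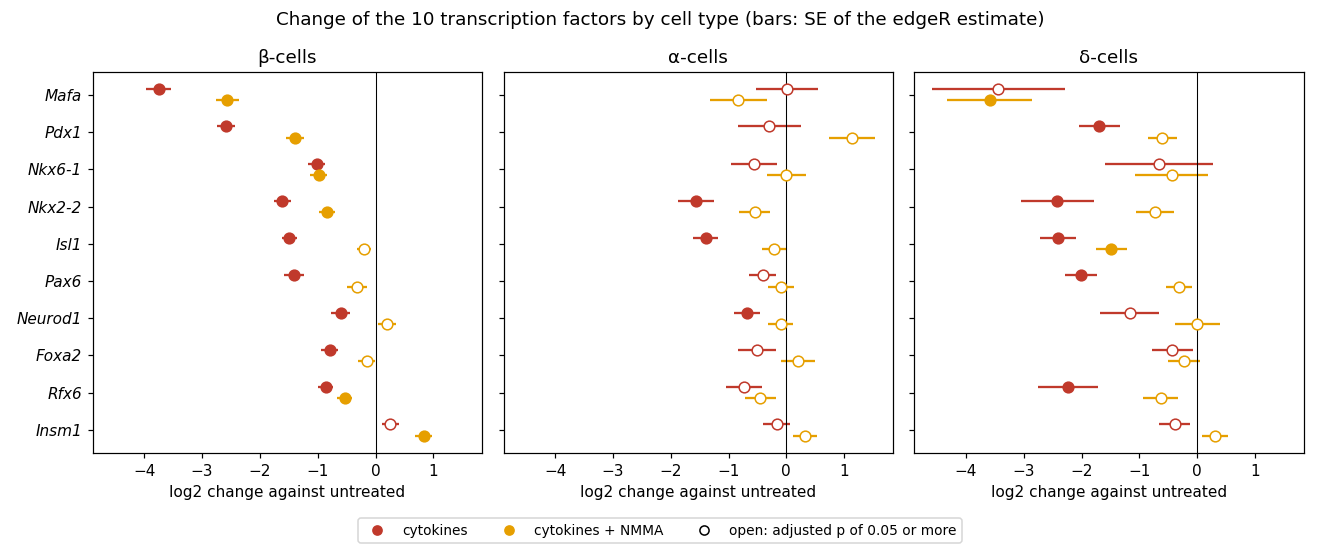
Log2 change of each factor (rows) against untreated (x axis) in β-, α- and δ-cells, with cytokines and with cytokines + NMMA, as edgeR estimates with bars of 1 SE, filled where the adjusted p was under 0.05. Of the 10 factors within β-cells, *Mafa* and *Pdx1* fall furthest with cytokines (-3.75 and -2.59), while *Isl1* is lower in all 3 cell types with cytokines and in δ-cells also with cytokines + NMMA.

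The loss itself was compared between cell types by an interaction term over β-cell and α- or δ-cell sums. With cytokines, *Mafa* (by 3.72 ± 0.52, adjusted p = 7.69e-06), *Pdx1* (by 2.33 ± 0.59, adjusted p = 0.00705) and *Pax6* (by 1.01 ± 0.21, adjusted p = 0.00108) changed less downwards in α- than in β-cells, where 2.11% of 12788 genes differed in that direction. For *Mafa* and, in part, *Pdx1* the untreated α-cell level is within reach of carried-over β-cell RNA as given above, so the difference for them compares a β-cell loss with a level near the floor. *Pax6* has UMIs well above the floor in both cell types. Its α-minus-β difference was lost without cytokines replicate 1 (0.59, adjusted p = 0.214), and that of *Pdx1* without cytokines replicate 2 (1.32, adjusted p = 0.656) and at a coarser clustering (adjusted p = 0.0586). The loss of *Isl1* (difference 0.11 ± 0.21, adjusted p = 0.861), *Nkx2-2* (0.06 ± 0.30, adjusted p = 0.961) and *Neurod1* (-0.06 ± 0.21, adjusted p = 0.932) was not found to differ between α- and β-cells, with SEs of 0.21 to 0.30 on the log2 scale.

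Between δ- and β-cells, *Isl1* was the factor called, with a larger loss in δ-cells (-0.99 ± 0.30, adjusted p = 0.0310, where 2.83% of 12989 genes differed in that direction and the median of all genes was -0.24). That call was lost with DESeq2 (-0.82, adjusted p = 0.244), with scaling by total UMIs (-0.55, adjusted p = 0.449, median of all genes 0.19) and without either untreated or cytokines + NMMA library or cytokines replicate 2, furthest without the last (-0.47, adjusted p = 0.711). *Pax6* (-0.67, adjusted p = 0.295), *Rfx6* (-1.44 ± 0.60, adjusted p = 0.176) and *Pdx1* (0.85, adjusted p = 0.357) were not called. When α-, δ- and *Ppy*-led cells were summed as non-β endocrine cells, no factor was called among 335 genes of 12961 (2.58%), although 4 factors had an unadjusted p under 0.05. The difference was 2.92 ± 0.71 for *Mafa* (adjusted p = 0.0735) and 0.74 for *Pax6* (adjusted p = 0.0599), and DESeq2 called 1 factor higher, *Mafa*. In this sum δ-cells were 85 and 44 of 218 and 175 cells untreated and 11 and 12 of 63 and 87 with cytokines. A change in the mix of cell types cannot be told apart there from a change of level within them.

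The same comparison for cytokines + NMMA was added after the data were seen. The α-minus-β difference was above zero for *Pdx1* (2.58 ± 0.35, adjusted p = 1.47e-07) and *Mafa* (1.72 ± 0.45, adjusted p = 0.0369), where 0.837% of genes differed in that direction. *Pdx1* did not fall in α-cells, being at 172% and 277% of untreated (27 and 36 UMIs against 12 and 13). The main α-cell fit did not call that rise. The *Mafa* difference was lost with DESeq2 (adjusted p = 0.306), at resolution 1 (adjusted p = 0.0828), without untreated replicate 1 (adjusted p = 0.231) and without cytokines + NMMA replicate 2 (adjusted p = 0.451). *Nkx6-1* differed by 1.01 ± 0.31 (adjusted p = 0.133) and was called when any library but untreated replicate 1 or cytokines + NMMA replicate 2 was left out. *Isl1* fell further in δ- than in β-cells (-1.24 ± 0.23, adjusted p = 5.00e-05, 0.57% of genes in that direction, with DESeq2 adjusted p = 0.0549, without untreated replicate 1 0.0546 and without cytokines + NMMA replicate 2 0.0907), where its β-cell level had come close to untreated. In the summed non-β endocrine cells *Pdx1* differed by 1.17 ± 0.22 from β-cells (adjusted p = 0.00287, 0.602% of genes, with DESeq2 adjusted p = 0.0606, without untreated replicate 2 0.110 and without cytokines + NMMA replicate 1 0.135). The sum held 41 and 30 *Ppy*-led cells untreated and 3 and 4 with cytokines + NMMA, so mix and level cannot be told apart here either. For NMMA alone no factor was called in any of these differences (0.00782% of genes for α minus β, 0% for the others), and 402 and 416 genes for α and δ minus β had an unadjusted p under 0.05.

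Within the cytokine-treated libraries β-cells differ in whether a UMI of *Nos2* was caught, which offered a split that the factors did not define. At 9500 UMIs a cell, 48.1% and 41.9% of β-cells held *Nos2* with cytokines and 67.4% and 59.1% with cytokines + NMMA, against 1 cell in untreated replicate 1. Cells with it had more UMIs before thinning (for example a median of 33472.5 against 28787 in cytokines replicate 2), and a cell without a *Nos2* UMI may still express the gene. *Mafa* was at 21.6 CPM in cells with and 48.3 CPM in cells without *Nos2* in cytokines replicate 1, at 26.9 and 67.7 in replicate 2, and at 57.4 and 101 and at 81.6 and 168 in the cytokines + NMMA libraries. *Pdx1* was at 12.5 with and 27.3 without, 8.97 and 26.1, 47.1 and 62.8, and 39.5 and 59.7 CPM in the same order. In all 4 libraries, with NMMA or without, the cells with *Nos2* were the lower ones for both genes. The same direction in all 4 was seen for *Nkx6-1*, *Pax6*, *Neurod1* and *Rfx6*.

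With the library as a block, *Mafa* was lower in cells with *Nos2* by -1.05 ± 0.11 (edgeR adjusted p = 7.59e-09), *Pdx1* by -0.77 ± 0.14 (adjusted p = 0.000199) and *Nkx6-1* by -0.47 ± 0.09 (adjusted p = 0.000558). *Nkx2-2* (-0.41 ± 0.13, adjusted p = 0.0493) and *Rfx6* (-0.45 ± 0.15, adjusted p = 0.0497) were at the threshold and were lost with DESeq2, with scaling by total UMIs and without cytokines or cytokines + NMMA replicate 1 (adjusted p from 0.205 to 0.428). *Rfx6* was also lost without the low-count filter (adjusted p = 0.0665), without cytokines replicate 2 (adjusted p = 0.0953) or cytokines + NMMA replicate 2 (adjusted p = 0.0612), and *Nkx2-2* was not lower in cytokines replicate 2. These 5 of 10 factors stand beside 2.45% of 9706 genes that were lower. *Isl1* differed by 0.03 ± 0.11, with 43.0 with and 35.4 CPM without *Nos2* in cytokines replicate 1 and 40.4 and 52.1 in replicate 2, and *Insm1* by 0.02 ± 0.08. *Pax6* (-0.26 ± 0.09, adjusted p = 0.0754), *Neurod1* (-0.21 ± 0.09, adjusted p = 0.164) and *Foxa2* (-0.07 ± 0.15) were not called. The cells on either side come from the same islets and culture, so the p-values compare cells within these 4 libraries.

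**Figure D5:**
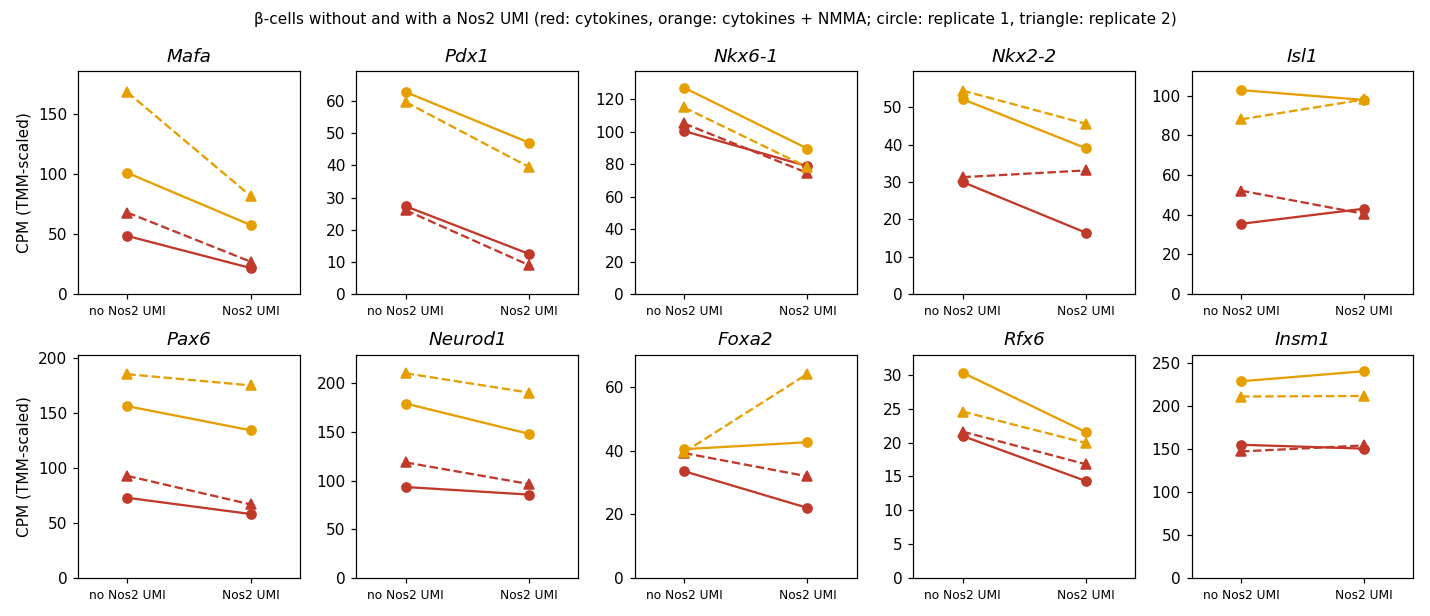
Level of each factor (y axis, TMM-scaled CPM) in β-cells without and with a *Nos2* UMI, joined by a line for each of the 4 cytokine-treated libraries, at 9500 UMIs a cell. The lines fall in all 4 libraries for *Mafa* (for example 67.7 to 26.9 CPM in cytokines replicate 2) and *Pdx1*, and show no common direction for *Isl1*.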

How the data were processed

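Single-cell libraries of mouse islets were read as the UMI counts per gene and barcode that the authors deposited as filtered matrices, made with CellRanger 3.0.0 for replicate 1 and 6.0.0 for replicate 2 per the labels, so version and replicate cannot be told apart. The build was mm10, and the kit is given as v2 in the labels and v3 in the study's methods. Counts were not normalized by the authors. No column was left unmapped to a library.

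Barcodes with 200 to 5500 genes (replicate 1) or 6500 (replicate 2) and under 10% mitochondrial UMIs were kept, following the study, 10876 of 17426 (62.4%). The study's cell annotation was not used here. Cells were clustered with scanpy 1.11.5 and leidenalg 0.10.2 (Python 3.11.15, 2000 variable genes without the 10 factors, 30 components, 20 neighbours, resolution 1.0, and 1.5 for a second round over hormone-expressing cells), and clusters were named from marker lists, so names may differ from the study's. Doublets (99, 0.910%) were called by simulation and removed only as an alternative, and libraries shared at most 2 barcodes. Insulin RNA made up 0.195% to 4.31% of the UMIs of nonendocrine cells.

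Raw UMIs were summed per library and cell type, where a library had at least 10 cells, and tested with edgeR 4.0.16 (R 4.3.3, TMM, quasi-likelihood, all 4 conditions in 1 fit, filterByExpr) over all genes with Benjamini-Hochberg adjustment. Losses were compared between cell types by an interaction term. Cells of unlike depth were thinned to 1 number of UMIs for shares and for the *Nos2* split. The scripts were tested on simulated data. The replicate number pairs libraries, since each pool of islets was divided over the conditions, and the main fits within a cell type left this pairing out. Deviations of equal-numbered libraries correlated at 0.606 to 0.696 in β-, 0.242 to 0.442 in α- and 0.157 to 0.378 in δ-cells. Alternatives were DESeq2 1.42.0, total-UMI scaling, no low-count filter, the replicate block, each library left out, doublets removed, the factors kept for clustering, thinned sums and, chosen after seeing the data, resolution 1 in the second round and the comparisons of losses with cytokines + NMMA.

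The factors and gene lists were chosen with earlier results of these data known. Named were the 10 factors always, from each other list the 3 called genes that changed most in each direction in β-cells with cytokines, treatment checks, antisense partners (some genes and 1 motif are not reported here), and the 5 genes whose β-cell pattern was most like the factors' mean. UMI totals per library limit precision, and intervals cover counting error only.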

Additional observations from a re-analysis of the deposited data

Results flagged for a closer look

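A test of the difference between cell types singled out 8 changes against untreated, all by the interaction term of the edgeR quasi-likelihood test over every gene. With cytokines, the change in α-cells minus that in β-cells was 3.72 for *Mafa*, 2.33 for *Pdx1* and 1.01 for *Pax6* on the log2 scale. With cytokines + NMMA it was 1.72 for *Mafa* and 2.58 for *Pdx1*. The change in δ-cells minus that in β-cells was -0.99 for *Isl1* with cytokines and -1.24 with cytokines + NMMA. For *Pdx1* with cytokines + NMMA, the change in summed non-β endocrine cells minus that in β-cells was 1.17, in a sum whose mix of cell types differed between conditions. In α-cells *Mafa* had 3 to 26 UMIs a library and *Pdx1* 2 to 36, and in δ-cells *Isl1* had 22 and 16 UMIs with cytokines.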

How the results depend on the processing

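No called value changed sign under the alternatives run. Counts are of the 10 factors called. With the replicate block, 1 factor was higher with cytokines in β-cells, 2 were lower and 1 higher with NMMA in β-cells, 1 was higher with cytokines + NMMA than untreated in α-cells, and 4 in α- and 2 in δ-cells were higher with cytokines + NMMA than with cytokines. The block changed no other count by over 1.5 times. With DESeq2, 1 was lower with NMMA in β-cells, 3 with cytokines and 1 with cytokines + NMMA in δ-cells, 3 in β-cells with *Nos2*, and 1 was higher with cytokines + NMMA than with cytokines in α-cells. DESeq2 gave 0 for δ minus β with cytokines, 0 for δ minus β and 0 for non-β minus β with cytokines + NMMA, 1 for α minus β with cytokines + NMMA and 1 higher for non-β minus β with cytokines. Scaling by total UMIs gave 6 lower with cytokines and 6 higher with cytokines + NMMA over cytokines in α-cells, 0 for δ minus β, 1 lower and 1 higher for non-β minus β with cytokines, 3 with *Nos2*, and 4 factors highest in untreated β-cells in place of 7. Without the low-count filter, 1 was lower with NMMA in β-cells, 4 in α- and 3 in δ-cells were higher with cytokines + NMMA over cytokines, and 2 for non-β minus β with cytokines. With doublets removed, and likewise at resolution 1, 1 was higher with cytokines + NMMA over cytokines in α-cells, and resolution 1 gave 1 for α minus β with cytokines + NMMA. The cause was not tested.

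Leaving out 1 library at a time gave 8 to 9 lower in β-cells with cytokines, 4 to 5 lower with cytokines + NMMA against untreated and 4 to 8 higher against cytokines. In α-cells it gave 2 to 5 lower with cytokines and 1 to 3 higher with cytokines + NMMA over cytokines. In δ-cells it gave 2 to 5 lower with cytokines, 1 to 2 with cytokines + NMMA, and 0 to 3 higher with cytokines + NMMA over cytokines. For α minus β the count was 2 to 3 with cytokines and 1 to 3 with cytokines + NMMA, for δ minus β 0 to 1 with each (0 to 1 higher with cytokines + NMMA), for non-β minus β 0 to 2 and 0 to 1, and with *Nos2* 3 to 5. A lone library left in a condition was assumed to vary like the others.

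Over all genes in β-cells with cytokines, 46.3% were called, against 24.4% with DESeq2, 31.6% without the filter and 63.1% with the block. Keeping the factors for clustering and thinning the β-cell sums moved no count by over 1.5 times. Cell number limits δ-cells most, with 11 and 12 cells in the cytokine libraries.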

Other observations

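*Pax6os1*, the gene antisense to *Pax6*, was at 8.65 and 7.96 CPM in untreated β-cells (305 and 131 UMIs), 2.59 and 1.999 with cytokines, 5.02 and 3.71 with cytokines + NMMA and 4.37 and 4.57 with NMMA. It lay lowest in the cytokine libraries, as *Pax6* did, and in the NMMA libraries it lay below untreated while *Pax6* did not. *Nkx2-2os* had at most 5 UMIs in any β-cell library.

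The 5 genes whose log2 level over the 8 β-cell libraries was most like the mean of the 10 factors were *Pnmal2* (Pearson r = 0.998), *Castor2* (0.997), *Wdr6* (0.997), *Atp2b2* (0.995) and *Mtcl1* (0.994). The libraries share islet pools and fall into conditions, so r is given as a description over 8 points that are not independent. With cytokines these genes changed by -2.36, -3.03, -2.78, -2.26 and -1.10 on the log2 scale.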
